A study of Mus musculus with 94 samples.

Results

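The 54 probes described here were read more strongly in the macrophage than in the tubule segments of injured, vehicle-treated kidneys late after ischemia-reperfusion injury (IRI), while their level in tubules stayed close to that of uninjured kidneys. They were 54 of 20175 probes in the mouse whole transcriptome panel and were chosen by measured values. The counts of all regions of a kidney section were summed for each stain and expressed as log2(CPM + 1), where CPM is the count scaled to a total of 1000000 for that sum. A probe was taken when its macrophage level exceeded its tubule level by a mean of at least 1 over the 4 vehicle sections of days 7 and 14, and when its mean tubule level in vehicle sections of day 14 lay less than 0.5 from that of control sections. The first criterion alone was met by 451 probes, of which 394 were left out because their tubule level was higher by 0.5 or more and 3 because it was lower by 0.5 or more. The rule could take up to 100 probes, so all that met it were kept, and the probe RTS0070220, which the rule leaves out by name, had a compartment difference of only 0.02. The files give probe identifiers without gene names, so no gene, cell type marker or probe sequence can be named.

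Male C57BL/6 mice underwent unilateral IRI, in which the vessels of the left kidney were clamped and then released, after receiving vehicle or entospletinib, an inhibitor of the kinase SYK. The groups were control (CTRL, uninjured kidney), vehicle at days 1, 7 and 14 (I1V, I7V and I14V) and entospletinib at days 1, 7 and 14 (I1E, I7E and I14E), and the day 1 mice had received the pretreatment alone. In the later groups injections went on daily until day 7 and then every 2 days until day 14. Day and number of doses therefore cannot be told apart. Each of the 7 groups held 2 sections, with the prefixes E1 and E2, giving 14 sections. The labels do not say in words that the prefixes are separate mice, so the p-values measure the spread between these sections. In comparisons between groups this spread was pooled over the sections of all 7 groups, and not taken from the compared sections alone. Controls are described as contralateral or untouched kidneys, and an age was not found in the sources used here.

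In the GeoMx digital spatial profiling assay, probes are hybridized to fixed tissue, and barcodes are released by light only from the illuminated area. Macrophage segments were drawn on IBA1, a calcium-binding protein of macrophages, and tubule segments on pan-cytokeratin (PanCK) and CD10, which mark renal epithelium. After IRI, macrophages accumulate between injured tubules, clear debris and take part both in repair and in fibrosis. SYK relays signals from immune receptors on leukocytes. A segment is an area that can hold several cell types, and macrophages lie against tubules, so a segment's stain names where it was drawn and not which cells made each transcript. Without gene names, neither compartment could be checked against its defining markers. A higher CPM also cannot tell more cells of a type apart from more RNA per cell.

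There were 46 macrophage and 48 tubule segments. Macrophage sums held between 117693 and 2773456 counts, and tubule sums between 9404235 and 25729550. The shallowest macrophage sums were the second entospletinib day 7 section with 117693 counts and the control sections with 159453 and 298063. In the 2 shallowest of these the median member rested on 4 counts, whereas in the deepest macrophage sum it rested on 154. Counts of 0 were found for 2 members in the first control section, 1 in the second and 3 in the second entospletinib day 7 section. A count of 0 there allowed levels of up to 18.8, 10.1 and 25.5 CPM, respectively (3 counts of the total, counting error only). In tubule sums no member had fewer than 75 counts.

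In the sections that chose them, the 54 members had compartment differences between 1.00 and 1.61 (median 1.20, against -0.01 over all probes). Their tubule difference at day 14 ranged from -0.32 to 0.49 with a median of 0.35, against -0.06 over all probes, so most members sat in the upper part of the band. Macrophage levels were above tubule levels in all 4 sections for each of the 54. The difference reached 1 in all 4 sections for 24 members, in 3 for 20, in 2 for 9 and in 1 section for the last one.

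The member with the largest compartment difference was RTS0065543 (1.61), which also sat nearest the upper edge of the tubule band (0.49). RTS0061618 came second (1.54). At the other end, RTS0071606 had a difference of 1.004, while RTS0068399, just outside, had 0.999. The nearest probe beyond the upper tubule edge was RTS0078401, at 0.52. RTS0062100 had the lowest tubule difference among the members (-0.32), and the nearest probe beyond the lower edge was RTS0068463, at -1.03. These values chose the members and carry no test.

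The members were not uniformly abundant. Ranked by mean log2(CPM + 1) among all probes, they ran from percentile 12.0 to 97.8 in macrophage sums (median 66.4). In tubule sums they ran from 4.5 to 91.4 (median 43.4). The study filtered genes by a detection limit drawn from negative probes. Negative probes could not be identified here, so no such limit was applied. Whether steady low tubule levels were background was not tested. Together they took 0.179% to 0.384% of macrophage counts and 0.113% to 0.166% of tubule counts, and they made up 0.268% of the probes. Across the 14 macrophage sums a member's log2(CPM + 1) spanned a median of 2.19, against 0.81 across the 14 tubule sums. The median SD over the sums was 0.64 in macrophage and 0.25 in tubule sums for the members, and 0.50 and 0.25 for all probes. The rule used levels of both compartments and so partly fixed the members' figures.

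In the vehicle sections of days 7 and 14, the sections used for the choice, the median compartment differences were 1.24 and 1.31 at day 7 and 1.12 and 1.25 at day 14. Elsewhere they were 0.40 and 0.44 in the control sections, 0.73 and 0.40 at vehicle day 1 and 0.41 and 0.58 at entospletinib day 1. With entospletinib they were 0.16 and 0.87 at day 7 and 0.81 and 1.18 at day 14. The median of the second entospletinib day 14 section thus lay within the range of the 4 vehicle sections, with 53 of 54 members above 0 (59.3% of all probes). The first entospletinib day 7 section lay farthest from them, with 30 of 54 members above 0 (41.7% of all probes). Over all probes the median lay between -0.09 and 0.13 in every section.

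**Figure D1:**
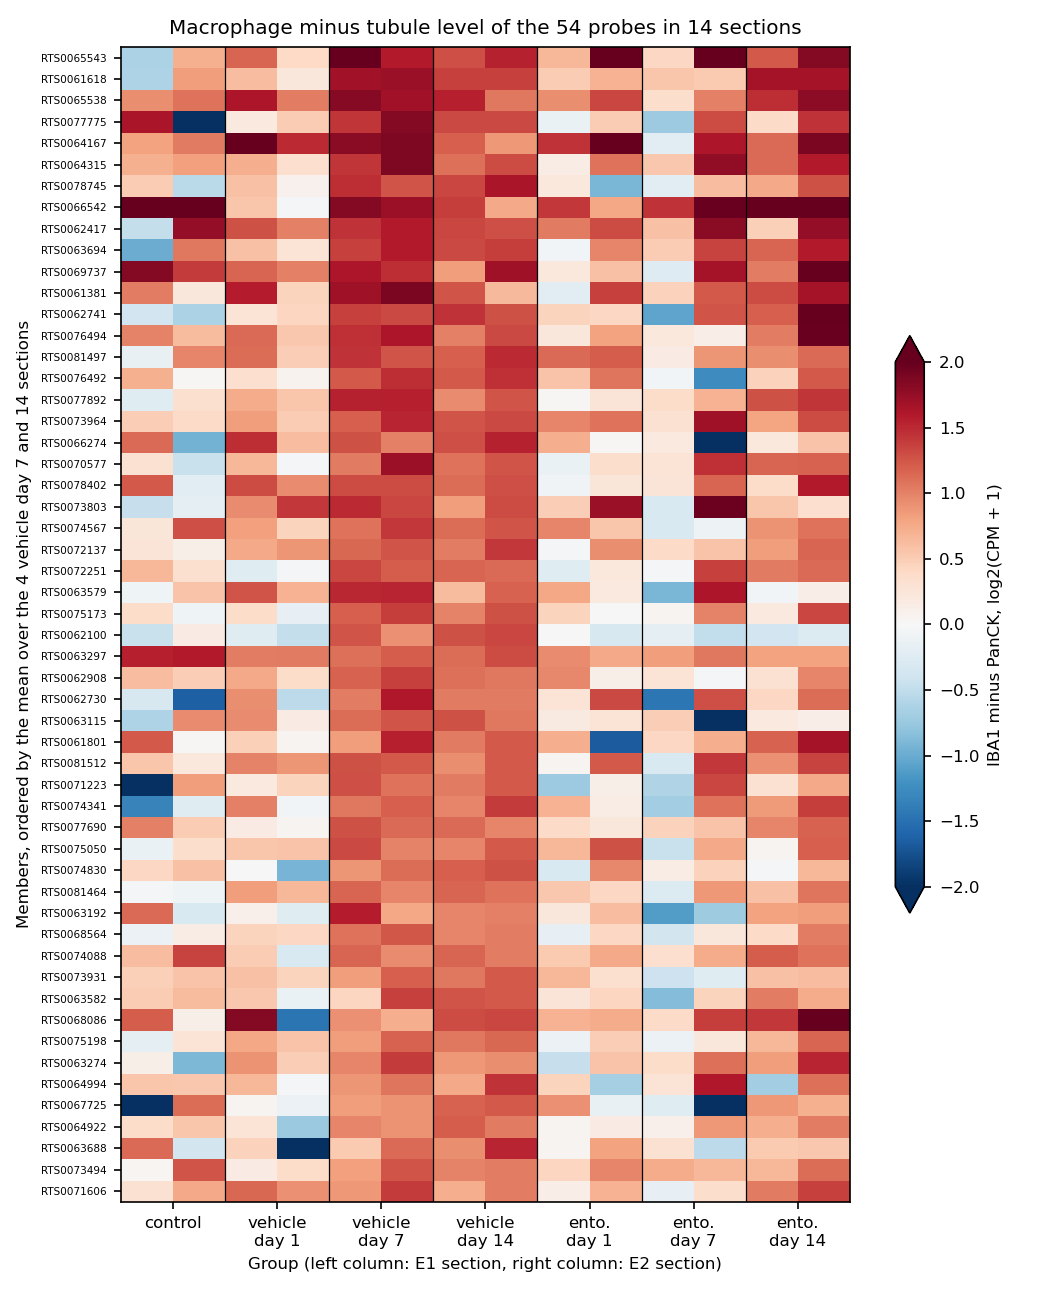
Macrophage (IBA1) minus tubule (PanCK) log2(CPM + 1) of each of the 54 probes (rows, largest mean difference at the top) in each of the 14 sections (columns), with colours cut at -2 and 2 and ento. standing for entospletinib. The 4 vehicle day 7 and 14 columns, used to choose the probes, are positive for all 54, and the other columns are positive for 30 to 53. In those other columns 41.7% to 59.3% of all probes are positive.

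Whether the probes were also read more strongly in macrophage segments outside the sections that chose them was asked in the 8 sections of vehicle day 1 and entospletinib days 1, 7 and 14, none of which entered the rule. Macrophage levels exceeded tubule levels in all 8 sections for 12 of the 54 members, in 7 sections for 22 and in 6 for 14, and a single member was lower in all 8. Of all probes, 4.85% were higher in all 8 sections, 6.67% in 7, 10.8% in 6 and 3.78% in none. All probes were fitted with the section as a block. The macrophage over tubule log2 fold change was above 0 for 53 of 54 members (35.4% of all probes). Its median was 0.55 for the members, against -0.10 for all probes. At an adjusted p below 0.05 (edgeR quasi-likelihood test, Benjamini-Hochberg over 20175 probes) and a fold change above 1 on the log2 scale, 7 members were higher in macrophage segments, where 1.66% of all probes were called higher. No member was called lower, where 0.233% of all probes were.

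By the adjusted p alone, a count added after seeing the data, 34 members were higher, against 6.68% of all probes, and 1 was lower, against 9.85%. The fitted differences were smaller than the log2(CPM + 1) differences in the sections that chose the probes, and most fell short of the fold threshold. The measures are scaled differently, and the choice itself required a mean difference of at least 1. No conclusion is therefore drawn from the smaller size. Without the second entospletinib day 14 section, 3 of the 7 calls were made (RTS0065538, RTS0065543 and RTS0066542), and cortical regions alone gave 4 and medullary regions alone 10.

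**Figure D2:**
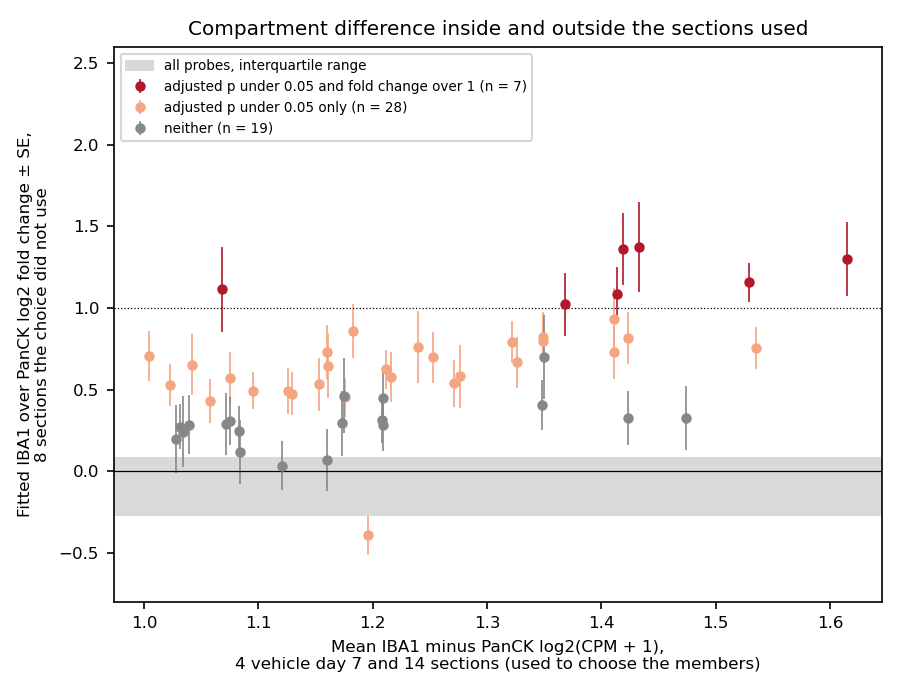
Fitted macrophage over tubule log2 fold change in the 8 sections the choice did not use (vertical, ± SE) against the mean difference in the 4 sections it used (horizontal), one point per member, with the interquartile range of all probes shaded in grey. All points except one lie above 0, 7 of them (dark red) pass both thresholds, 28 (light red) pass the adjusted p alone, and 19 (grey) neither.

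RTS0065538 had the smallest adjusted p. Its macrophage CPM was 111 and 70.7 at vehicle day 1, 59.2 and 86.5 at entospletinib day 1, 64.7 and 85.0 at entospletinib day 7 and 128 and 137 at entospletinib day 14. Its tubule CPM in the same groups was 35.4 and 34.1, 30.6 and 33.9, 50.5 and 41.6, and 45.6 and 38.9. Every macrophage value of these 8 sections therefore lay above every tubule value, and the fitted log2 fold change was 1.16 ± 0.12 (SE, adjusted p = 9.86e-10). Cortical regions alone gave 0.90 (adjusted p = 2.64e-06), below the fold threshold. In control sections, whose macrophage sums the rule did not use, it read 94.1 and 107 CPM in macrophage segments against 49.0 and 50.2 in tubules.

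RTS0062417 came second, at 1.09 ± 0.16 (adjusted p = 2.73e-06). It was a low-level probe, with macrophage CPM of 36.1 and 22.1, 29.6 and 29.7, 23.7 and 42.5, and 18.6 and 42.3 in these 4 groups in the same order. The tubule values were 14.4 and 10.4, 13.9 and 11.3, 15.5 and 11.4, and 13.2 and 11.8. Macrophage levels were higher than tubule levels in each section, but 5 to 26 counts stood behind each macrophage value. Medullary regions alone gave a log2 fold change of 0.70 with an adjusted p of 0.105.

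The 2 members with the largest difference in the sections that chose them behaved unequally in the others. RTS0065543 gave 1.30 ± 0.22 (adjusted p = 0.000278), from macrophage CPM of 15.8 to 76.5 and tubule CPM of 9.00 to 16.5. With all sums thinned to the lowest total its log2 fold change was 1.00 and the adjusted p 0.31. RTS0061618 gave 0.76 ± 0.13 (adjusted p = 5.22e-05), which passed the adjusted p and not the fold threshold. Medullary regions alone gave 1.44 (adjusted p = 6.16e-07), past both thresholds, and cortical regions alone 0.42. Its macrophage CPM of 252 and 252 at vehicle day 7 and 282 and 276 at vehicle day 14 stood above all its other macrophage values, the highest of which was 227. Those vehicle sections chose the probe, so this separation carries no test. RTS0071606, the member at the lower edge, gave 0.71 ± 0.15 (adjusted p = 0.000589).

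RTS0062100 was the member that went the other way. In macrophage segments it read 106 and 109 CPM at vehicle day 7 and 116 and 120 at vehicle day 14. The control values were 50.2 and 57.0, and vehicle day 1 gave 37.5 and 33.1. With entospletinib the values were 55.3 and 42.0 at day 1, 47.3 and 59.5 at day 7 and 46.5 and 52.4 at day 14. The 4 vehicle values of days 7 and 14 thus stood apart from the other 10, which did not exceed 59.5. Those 4 sections chose the probe for a high macrophage level, so this separation was partly fixed by the choice and carries no test.

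In tubules the same probe read between 43.7 and 84.1 CPM in the 14 sections, and its macrophage level was below its tubule level in all 8 sections that did not enter the rule. The fitted log2 fold change there was -0.39 ± 0.12 (adjusted p = 0.0157), short of the fold threshold. With another scaling it was -0.30 (TMM, adjusted p = 0.0826) or -0.29 (DESeq2, adjusted p = 0.152), and without the first or the second entospletinib day 14 section the adjusted p was 0.055 and 0.0549.

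**Figure D3:**
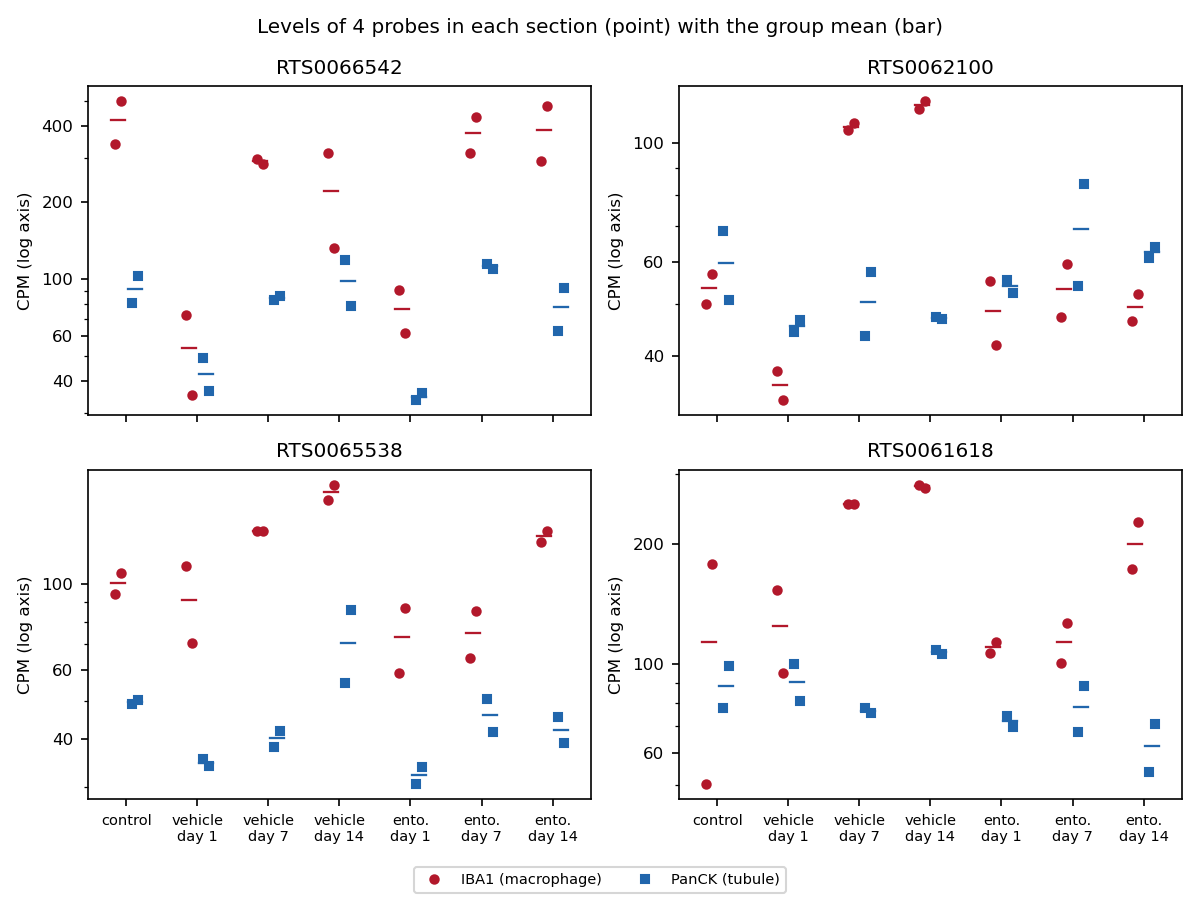
CPM on a log axis of 4 members in each of the 7 groups, with red circles for macrophage sums, blue squares for tubule sums, one point per section and a bar at the mean of the 2 sections. RTS0062100 stands at 106 to 120 CPM in macrophage segments of vehicle days 7 and 14 only, the sections that chose the members. RTS0066542 is at its lowest in both compartments at day 1.

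In tubules, where the rule fixed vehicle day 14 and control alone, the members also stayed near control in the other injured groups. The mean tubule log2(CPM + 1) lay within 0.5 of control for 48 of 54 members at vehicle day 1, 52 at vehicle day 7, 50 at entospletinib day 1, 54 at entospletinib day 7 and 53 at entospletinib day 14. The same held for most probes of the panel, with shares of all probes of 93.5%, 88.4%, 94.3%, 98.0% and 97.8% in that order, so staying near control was not particular to the members. The control tubule sums entered the rule, and these counts carry no test. At vehicle day 14 the members' tubule levels were above the panel on both scales, with a fitted median of 0.13 after upper quartile scaling, against -0.30 for all probes.

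Tubule levels could be tested between entospletinib and vehicle at day 1 and between entospletinib days 14 and 1, none of which entered the rule. With entospletinib at day 1, the median log2 fold change against vehicle was -0.10 (all probes -0.01). The fold change was below 0 for 40 of 54 members, while 46.7% of all probes were above 0. No member was called in either direction (0% of all probes, edgeR). The median was -0.26 without the first entospletinib day 1 section and 0.04 without the second, so its sign rested on single sections. At an unadjusted p below 0.05 there were 2 members and 100 probes in all, and DESeq2 called no member. From day 1 to day 14 under entospletinib the median was 0.05 (all probes 0.03), between -0.10 and 0.22 when single sections were left out, and again no member was called, against 0.0347% of all probes called higher and 0.248% lower. There 6 members had an unadjusted p below 0.05, of 1759 probes in all.

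The member nearest to a call in that comparison was RTS0066542, whose tubule CPM of 33.5 and 35.8 at entospletinib day 1 stood below 62.9 and 92.3 at day 14. Its log2 fold change was 1.27 ± 0.25 with an adjusted p of 0.0548, and DESeq2 on the same sums called it. Without the first entospletinib day 1 section, another member, RTS0062908, was the single call and was lower. It was named after its value was seen.

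Medullary regions alone, fitted as an alternative, gave calls in tubules at day 1 that the summed sections did not. In medullary tubules RTS0065543 read 31.1 and 52.6 CPM with vehicle and 12.1 and 11.2 with entospletinib, next to 9.96 and 13.7 in control. RTS0063579 read 44.0 and 91.5 with vehicle, 20.4 and 17.5 with entospletinib and 16.6 and 16.9 in control. RTS0066274 read 29.5 and 59.1 with vehicle, 14.4 and 11.7 with entospletinib and 9.54 and 14.9 in control. At vehicle day 14 these 3 probes had passed as stable in tubules. They are shown because they were called in the medullary fit, so the gap between their values carries no weight of its own. On the sums of all regions, both vehicle day 1 tubule sums lay above both control sums for 18.1% of all probes.

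Restricted to medullary regions, these 3 members were lower in tubules with entospletinib than with vehicle at day 1, by log2 fold changes of -1.68 ± 0.24, -1.67 ± 0.29 and -1.59 ± 0.31 (adjusted p = 0.00596, 0.0116 and 0.0209, edgeR). Of all probes, 0.912% were called lower and 0.555% higher there, and no member was called higher. Over all 54 members the median was -0.47 there, against -0.09 for all probes. RTS0063579 and RTS0066274 were named after their values were seen. Each of these medullary values came from 1 region per section, and the vehicle day 1 medullary tubules were the shallowest tubule regions of the comparison, with 1863750 and 1235205 counts, against 10109432 and 11699181 with entospletinib. The part of depth in the result was not tested.

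In macrophage segments the members' levels differed with time after injury in vehicle-treated mice. The median CPM of the 54 was 25.1 and 33.5 in control, 35.5 and 26.5 at day 1, 56.4 and 53.7 at day 7 and 55.5 and 58.0 at day 14. The day 1 sections thus overlapped with control, and the later ones did not. The fitted log2 difference from control had a median of 0.82 at day 7 and 1.02 at day 14. This difference was above 0 for 51 members at both times, against 47.6% and 42.7% of all probes. Differences above 1 were found for 22 members at day 7 and 28 at day 14, where 6.42% and 6.87% of all probes lay above 1. Macrophage sums of these 2 groups chose the members, so these figures carry no test.

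The comparisons of macrophage segments in which those sums were not compared gave few calls, though the sums shared in the estimate of the spread. At vehicle day 1 the median log2 fold change against control was 0.19 (all probes -0.08). It was -0.12 without the first vehicle day 1 section, 0.33 without the second and 0.58 without the second control section, so its sign rested on single sections. No member was called higher, against 0.357% of all probes, and 1 was called lower, against 0.233%. With entospletinib the median against control was -0.04 at day 7 and 0.41 at day 14 (all probes 0.00 and -0.04). Leaving out single sections gave medians from -0.14 to 0.17 at day 7, and at day 14 the median was 0.72 without the second control section. No member was called at either time, nor was any other probe (0% in each direction, edgeR), and DESeq2 called none. At an unadjusted p below 0.05 there was 1 member at day 7 (843 probes in all), and there were 8 at day 14 (1051 probes in all). The 3 comparisons share the control sections, which were among the shallowest.

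The probe called at vehicle day 1 was RTS0066542, the most abundant member in control macrophage segments. It read 339 and 500 CPM in control and 72.3 and 35.3 at vehicle day 1, and the groups did not overlap. The log2 fold change was -2.89 ± 0.37 (adjusted p = 1.85e-05), and it was called under each alternative scaling, filter, region and left-out section, with log2 fold changes between -3.55 and -2.51. Entospletinib day 1 gave similarly low values of 90.8 and 61.8.

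At later times its macrophage CPM was 297 and 283 at vehicle day 7, 312 and 133 at vehicle day 14, 314 and 433 at entospletinib day 7 and 290 and 479 at entospletinib day 14, which all lay above every value of day 1. Its fitted difference from control was -0.24 ± 0.34 at entospletinib day 7 and -0.15 ± 0.33 at entospletinib day 14 (adjusted p = 1.00 and 0.997). The tubule values were also lowest at day 1, with 80.6 and 103 in control, 49.0 and 36.3 at vehicle day 1 and 33.5 and 35.8 at entospletinib day 1, and 62.9 to 119 at the later times.

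In medullary macrophage segments alone, 4 members were called at vehicle day 1 against control, where 0.813% of all probes were higher and 1.14% lower. RTS0066542 was lower again. The higher members were RTS0073803, RTS0063579 and RTS0066274. RTS0073803 read 137 and 178 CPM against 17.2 and 47.9 in control, a log2 fold change of 2.24 ± 0.51 (adjusted p = 0.00219). RTS0063579 read 89.1 and 86.3 against 8.62 and 34.2 (1.99 ± 0.58, adjusted p = 0.042). RTS0066274 had 22 and 10 counts with vehicle against 1 and 0 in control, so its size is not given (adjusted p = 0.00364). Control medullary values of the higher members rested on 7 counts or fewer.

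The effect of entospletinib on macrophage segments could be tested at day 1. The median log2 fold change against vehicle was -0.18, against 0.05 for all probes. Below 0 were 34 of 54 members, while 54.4% of all probes were above 0. This direction rested on the first vehicle day 1 section, without which the median was 0.09 (all probes 0.07). No member was called in either direction (0% of all probes, edgeR), DESeq2 called none, and 4 members and 932 probes had an unadjusted p below 0.05. In medullary regions alone, RTS0063579 was lower with entospletinib, at 18.5 and 21.7 CPM against 89.1 and 86.3 with vehicle (-2.15 ± 0.53, adjusted p = 0.0212). There 0.114% of all probes were lower and 0.312% higher. The medullary values came from 1 region per section, with 4 counts in each entospletinib section and 28 and 16 with vehicle. The cortex of the same sections did not show this drop. There the probe read 44.7 and 18.2 CPM with entospletinib against 22.2 and 7.48 with vehicle, from 2 to 13 counts.

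At days 7 and 14 the vehicle sums had chosen the members for high macrophage levels, so the differences between treatments are given as values alone. The median CPM with entospletinib was 25.2 and 34.0 at day 7, next to 25.1 and 33.5 in control, and 39.0 and 40.6 at day 14, above both control and below both vehicle values. The median fitted difference from vehicle was -0.92 at day 7 and -0.57 at day 14, with 52 and 49 of 54 members below 0. Of all probes, 54.7% and 55.6% were above 0. A difference below -1 was found for 23 members at day 7 and 8 at day 14, where 4.25% and 2.15% of all probes lay below -1. In tubules the corresponding medians were 0.10 and -0.10, against 0.12 and 0.33 for all probes.

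**Figure D4:**
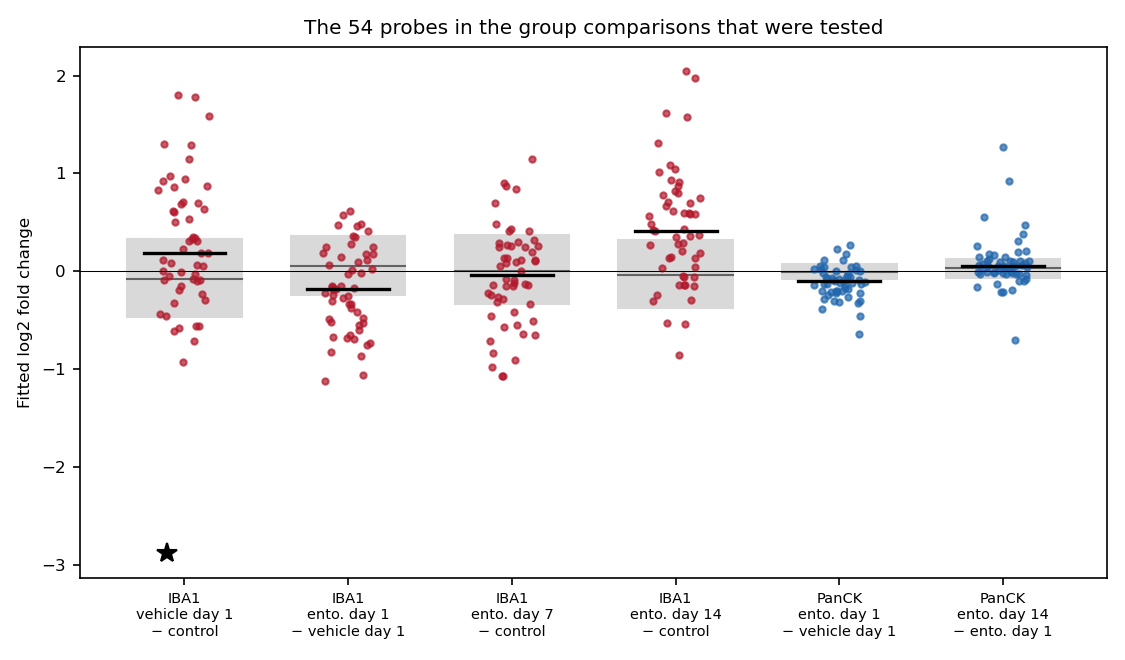
Fitted log2 fold changes of the 54 members in 4 macrophage (IBA1, red) and 2 tubule (PanCK, blue) comparisons. The sums compared did not enter the choice, but the sums that did shared in the estimate of the spread. Each point is a member, with a black bar at their median. A grey box and line give the interquartile range and the median of all probes. The star is RTS0066542 at -2.89, the single call, and the tubule points lie closer to 0 than the macrophage points.

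Whether the compartment difference itself was larger under entospletinib at days 7 and 14 than in the 4 sections of day 1 was tested as an interaction, in which day and drug cannot be told apart. The median over the members was 0.02 (all probes -0.01), between -0.18 and 0.20 when single sections were left out. The interaction was above 0 for 29 of 54 members (48.2% of all probes), and no member passed an adjusted p of 0.05. Of all probes, 0.00496% passed in each direction. At an unadjusted p below 0.05 there were 11 members and 1115 probes. RTS0066542 came nearest, with a compartment difference larger by 1.12 ± 0.24 at the later times (adjusted p = 0.105), and it was called without the first entospletinib day 1 section or without the first entospletinib day 7 section. DESeq2 called no member.

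Regions of cortex and medulla were compared within the same 8 sections. In macrophage segments the median log2 fold change of medulla over cortex was 0.19 (all probes 0.03), and 2 members were higher in the medulla, against 0.461% of all probes. None was called lower, against 0.778%. RTS0073803 gave 1.34 ± 0.22 (adjusted p = 6.83e-07). Its medullary CPM was 137 and 178 at vehicle day 1, 102 and 174 at entospletinib day 1, 66.5 and 195 at entospletinib day 7 and 56.4 and 65.8 at entospletinib day 14. The cortical values in the same order were 44.5 and 56.1, 37.9 and 45.4, 26.9 and 91.4, and 72.4 and 19.3. It was higher in the medulla in each section except the first of entospletinib day 14. These values rested on 7 to 18 counts in cortical sums and 8 to 43 in medullary ones. The 195 CPM at entospletinib day 7 rested on 8 counts.

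RTS0061381 gave 1.22 ± 0.34 (adjusted p = 0.0219) from few counts, between 1 and 8 in cortical sums and between 2 and 20 in medullary ones. This call was lost without either vehicle day 1 section, without the second entospletinib day 1 section and without the second entospletinib day 7 section (adjusted p between 0.0603 and 0.392). It was also lost with the filter on low counts (adjusted p = 0.0653) and by DESeq2.

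In tubules the median of medulla over cortex was 0.14 (all probes 0.06). No member was called higher, against 0.109% of all probes, and RTS0061618 was called lower, where 0.515% of all probes were. Its cortical CPM was 115 and 83.1 at vehicle day 1, 117 and 90.3 at entospletinib day 1 and between 90.4 and 104 at entospletinib days 7 and 14. The medullary values were 36.5 and 62.3, 46.9 and 45.8, 30.2 and 77.5, and 30.6 and 39.7. Every medullary value lay below every cortical one, and the log2 fold change was -1.16 ± 0.18 (adjusted p = 0.00636). RTS0066542 was lower in the medulla too, by -0.96 ± 0.20 (adjusted p = 0.0269), just short of the fold threshold. It was called as a second member with TMM or DESeq2 scaling and without the second vehicle day 1, the second entospletinib day 7 or the first entospletinib day 14 section.

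**Figure D5:**
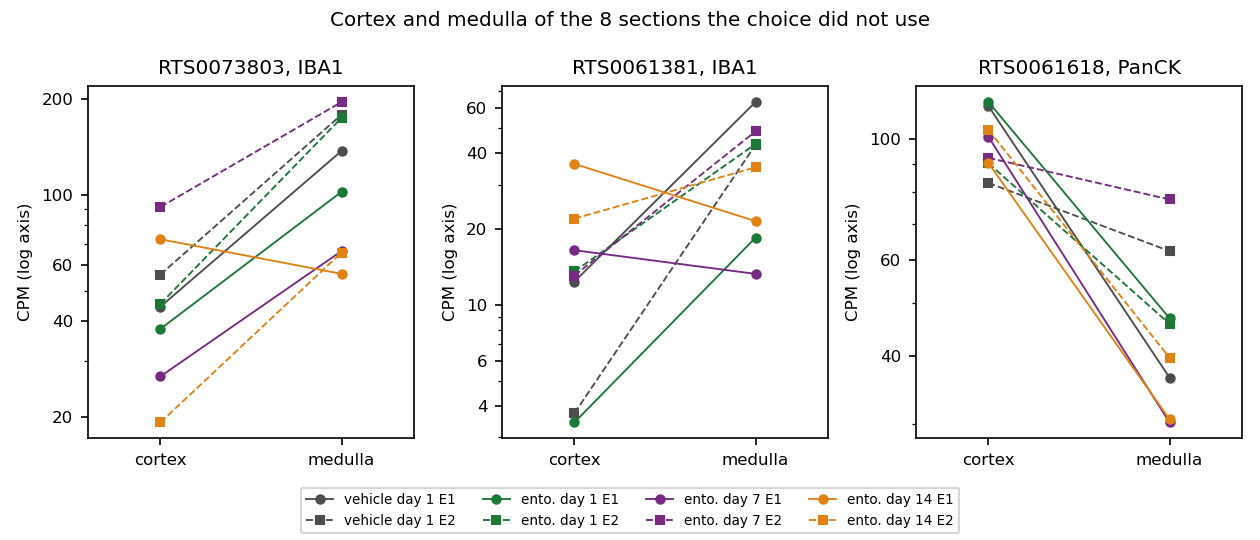
CPM on a log axis in cortex and medulla of the 8 sections the choice did not use, one line per section (circles and solid lines E1, squares and dashed lines E2), for 2 members in macrophage (IBA1) and 1 in tubule (PanCK) segments. RTS0073803 rises towards the medulla in each section except the first of entospletinib day 14, RTS0061381 in 6 of 8 sections, and RTS0061618 falls in all 8.

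The members can be set beside the 397 other probes with a compartment difference of at least 1, nearly all of which were left out because they were higher in day 14 tubules. In the 8 unused sections the median macrophage over tubule log2 fold change was 1.15 for those probes and 0.55 for the members, and 63.7% of those probes were called higher, against 13.0% of the members. In tubules with entospletinib against vehicle at day 1 the medians were -0.15 and -0.10, where the sign of the members' value rested on single sections. The sets were not matched on the size of the compartment difference that chose them. The difference between the sets was not tested.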

How the data were processed

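Per the labels, fixed kidney sections were hybridized with the GeoMx mouse whole transcriptome probes. The authors deposited whole-number counts per probe and segment, made with the NanoString pipeline, which collapses reads that share a molecular identifier, and the submitters' notes name mm10 and R 4.3.1. No count file was left out, and no 2 of the 94 segments were identical.

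Counts were summed per section and stain (or per section, stain and region), because regions of one section share an animal, whereas the study took regions as replicates. Each comparison was fitted over all 20175 probes, with no filter on low counts, by the edgeR 4.0.16 quasi-likelihood test (R 4.3.3) with upper quartile scaling and Benjamini-Hochberg adjustment. A call needed both an adjusted p below 0.05 and a log2 fold change beyond 1 in size (the adjusted p alone for the interaction). SE is the fold change divided by the root of F. Comparisons between groups were fitted on all sums of a stain, which shared the estimate of the spread. The sums that chose the members were among them. The fit was tested on simulated data. Alternatives used TMM, DESeq2 1.42.0, a filter, single regions, thinning, blocks and left-out sections.

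The members, comparisons and named probes were chosen with earlier results of these data known. Named were the 2 members with the largest compartment difference, those at each threshold, and in each comparison up to 2 members called in each direction.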

Additional observations from a re-analysis of the deposited data

Results flagged for a closer look

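RTS0062100 was marked because its macrophage minus tubule difference in log2(CPM + 1) went opposite ways under the 2 treatments. It was above 0 in each of the 4 vehicle sections of days 7 and 14 (mean 1.20 ± 0.19, SD, range 0.92 to 1.34) and below 0 in each of the 4 entospletinib sections of those days (mean -0.34 ± 0.13, SD, range -0.49 to -0.19). The difference between treatments was not tested, because the vehicle values were used to choose the probe.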

How the results depend on the processing

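Of 123 recomputed counts of members called, over 10 comparisons, 99 stayed within 1.5 times the count reported. In the comparisons with no call, a recount that again gave none was scored as unchanged, so the share says little about them. For macrophage over tubule segments (7 members), cortical regions alone gave 4, medullary regions alone 10, the adjusted p alone 35 and leaving out single sections 3 to 8. Medullary regions alone gave 4 at vehicle day 1 against control in macrophage segments, 3 of them higher where the single call on all regions was lower, and, for entospletinib against vehicle at day 1, 1 in macrophage segments and 3 in tubules (none on all regions). The cause was not tested. For tubules of entospletinib day 14 against day 1 (no call), DESeq2, the fit without the second tubule segments and DESeq2 with regions as replicates gave 1 each, and left-out sections 0 to 1. Medulla over cortex in macrophage segments (2 calls) gave 1 with the filter, under which 41 members were tested, 1 with DESeq2 and 1 to 3 without single sections. In tubules (1 call) it gave 2 with TMM, 2 with DESeq2 and 1 to 2 without single sections. The interaction (no call) gave 0 to 1. For the named probes, 132 of 142 recomputed fold changes kept their side of the threshold, and none changed sign.

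The replicate block by section prefix gave 1 call in place of 0 for tubules of entospletinib day 14 against day 1 and changed no other count. The deviations of same-numbered sections correlated, between groups, from -0.17 to 0.33 in macrophage sums (over 0.1 in 9 of 21 group comparisons) and from -0.54 to 0.74 in tubule sums (median 0.41, over 0.1 in 15 of 21). The labels name no shared batch, so the prefix was not taken to pair the sections, and a shared deviation of some tubule sums is a hint from the data alone. Depth limits the macrophage comparisons with control, where the median member had 4 and 10 counts.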
